A study of Mus musculus with 9 samples.

Results

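The genes described here are Gapdh and Pgk1, which encode glyceraldehyde-3-phosphate dehydrogenase and phosphoglycerate kinase 1. Both are measured by control probe sets printed on every array, and the members were chosen by the labels of these sets. Each gene has a set labelled for its 5′ end and a set labelled for its 3′ end, which makes 4 probe sets for 2 genes. Each set has 10 spots, so 40 of the 148260 spots on an array and 4 of its 91256 distinct probes belong to the mouse sets. Apart from Gapdh and Pgk1 the array files pair no mouse gene name with a probe, so 2 of 2 mouse genes that the files name are described.

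Glyceraldehyde-3-phosphate dehydrogenase and phosphoglycerate kinase 1 carry out neighbouring steps of glycolysis in the cytosol. The former oxidises glyceraldehyde-3-phosphate and makes NADH and a high-energy acyl phosphate, and the latter passes that phosphate to ADP, which makes ATP. Both genes are transcribed in nearly all cells and are often used as reference genes, and both are also known targets of hypoxia-inducible factor, which raises glycolytic transcription when oxygen is low.

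The study asked how messenger and long non-coding RNA differ in the stomach of mice after local irradiation. C57 mice, an inbred laboratory strain, had the stomach exposed to X-rays at 0 Gy (mock), 6 Gy or 12 Gy at 2 Gy per minute, under ketamine and xylazine in every group, and were killed 7 days later. Each group has 3 samples of gastric tissue, and RNA from each was labelled with 1 dye and hybridised to an array of its own. The labels give neither age nor sex nor which region of the stomach was taken. They describe each sample as tissue from a killed mouse, and if samples shared an animal the p-values would measure only the spread between samples.

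The 9 arrays lie on 3 slides that overlap only in part with the doses. Mock replicate 1 is alone on slide 1. Slide 2 carries the other two mock arrays together with replicates 1 and 2 of the 6 Gy group, whose replicate 3 is on slide 3 beside every array of the 12 Gy group. Mock and 12 Gy arrays never share a slide, and the scans follow the slides. Per array, the 75th percentile of intensity was 49.0 to 76.7, and 31.6% to 40.0% of probes were well above background. Gastric cell type markers could not be followed, because none of the 37 marker genes listed was matched to a probe. In whole tissue, fewer cells of a type and less RNA per cell cannot be told apart.

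The array files give no sequence for the control probes, so the sequence shown for each gene is its promoter, the 250 bases before the start of transcription from RefSeq (GRCm38.p6). The 2 windows are set side by side because the genes varied together across arrays. Capitals mark the core of a hypoxia response element, ACGTG or GCGTG, read on either strand. The Gapdh window is chr6:125165774-125166023 on the minus strand and lies within the span of the gene record, chromosome 6 from 125161852 to 125166467. The Pgk1 window is chrX:106186850-106187099 on the plus strand, and the gene record follows it on chromosome X from 106187100 to 106203699.
Gapdh: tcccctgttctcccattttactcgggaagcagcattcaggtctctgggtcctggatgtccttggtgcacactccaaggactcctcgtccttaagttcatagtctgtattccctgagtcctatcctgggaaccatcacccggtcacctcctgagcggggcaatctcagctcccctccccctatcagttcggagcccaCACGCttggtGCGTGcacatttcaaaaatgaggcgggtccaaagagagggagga
Pgk1: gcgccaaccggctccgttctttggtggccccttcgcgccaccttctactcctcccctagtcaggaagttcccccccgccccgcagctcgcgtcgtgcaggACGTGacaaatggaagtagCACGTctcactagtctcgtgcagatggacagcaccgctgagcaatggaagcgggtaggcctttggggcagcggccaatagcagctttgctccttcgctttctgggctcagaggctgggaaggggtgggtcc
Each window holds 2 hypoxia response cores. Those of Gapdh end 50 and 40 bases before the start, and those of Pgk1 end 146 and 127 bases before it. At least 1 core was present in 38.6% of the 32851 promoter windows. The share of windows with 2 cores was not counted. The Pgk1 window also holds 1 GC box (GGGCGG, either strand, found in 32.7% of windows) and 1 CCAAT box (CCAAT, either strand, found in 33.8%), and the Gapdh window holds neither. Neither window holds TATAAA on either strand, which 12.4% of windows do. The GC content was 55.6% for Gapdh and 62.8% for Pgk1, against a median of 52.4% over all windows. These matches describe letters in a window, and binding of a factor was not measured.

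All 4 sets gave strong signals on every array. All 90 spot values of each set, 10 spots on each of 9 arrays, were well above background, and none was saturated. The brightest Gapdh 5′ spot reached 6.15% of the saturation value, and the brightest spots of the other sets reached 2.18% (Gapdh 3′), 0.663% (Pgk1 3′) and 0.170% (Pgk1 5′). The mean intensity of the Gapdh 5′ set ran from 19063 to 44579 over the arrays, above that of 99.7% to 99.9% of the non-control probes of the same array. The Gapdh 3′ set was brighter than 99.0% to 99.5% of them, the Pgk1 3′ set than 97.2% to 98.3%, and the Pgk1 5′ set than 93.3% to 94.5%. These ranks place each set on its array and do not compare transcripts, since probes differ in how strongly they bind. Spots of a set differed little within an array. The median SD over the spots was 0.073 on the log2 scale for Gapdh 5′, 0.043 for Gapdh 3′, 0.066 for Pgk1 5′ and 0.067 for Pgk1 3′.

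Levels are given as the mean log2 intensity of a set minus the log2 of the 75th percentile of non-control spots on the same array, so a step of 1 is a doubling relative to that percentile. The question was whether either gene differed in level between mock and irradiated stomach. All 4 sets were higher in mean at both doses than in mock, by 0.08 to 0.40 on the log2 scale, while 62% of tested probes were higher in mean at 12 Gy and 66.6% at 6 Gy. Of the sets, 0 of 4 passed the test across all probes. The test was limma over 32008 rows, the 32004 probes above background and the 4 sets, with Benjamini-Hochberg adjustment. It called 0% of the probes at either dose against mock or between the doses. At an unadjusted limma p under 0.05 it also took 0 of the 4 sets, against 17.7% of probes (5660) for 12 Gy and mock, 16.1% (5158) for 6 Gy and mock, and 3.31% (1059) between the doses.

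The transcript of glyceraldehyde-3-phosphate dehydrogenase, read by the 5′ set of Gapdh, had levels of 8.60, 8.41 and 8.30 in mock replicates 1 to 3. The levels were 8.96, 8.84 and 8.73 in the 6 Gy replicates and 8.45, 8.71 and 9.18 in the 12 Gy replicates. Every 6 Gy array lay above every mock array, and at 12 Gy replicates 2 and 3 lay above all mock arrays while replicate 1 lay among them. The group means were 8.44 ± 0.15 (SD, n = 3) in mock, 8.84 ± 0.12 at 6 Gy and 8.78 ± 0.37 at 12 Gy. The difference from mock was 0.40 (SE 0.21) at 6 Gy, a fold of 1.32 with a 95% interval of 0.955 to 1.83 (limma, Benjamini-Hochberg adjusted p = 0.363). At 12 Gy it was 0.34 (SE 0.21), a fold of 1.27 with an interval of 0.916 to 1.76 (limma, adjusted p = 0.411). Gapdh 5′ was the 1 set of 4 whose 6 Gy arrays all lay above all mock arrays, and 16.9% of the tested probes did the same. At 12 Gy 0 of 4 sets did, against 15.7% of probes.

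The 3′ set of the same transcript overlapped between the groups at both doses. Its levels were 7.06, 7.11 and 6.89 in mock, 7.45, 7.40 and 6.77 at 6 Gy, and 6.78, 7.03 and 7.67 at 12 Gy. The arrays 6 Gy replicates 1 and 2 and 12 Gy replicate 3 were high, while 6 Gy replicate 3 and 12 Gy replicate 1 were below every mock array. Over 3 arrays each, the mean ± SD was 7.02 ± 0.11 in mock, 7.21 ± 0.38 for the 6 Gy group and 7.16 ± 0.46 for the 12 Gy group. The difference from mock was 0.19 (SE 0.27, 95% interval -0.41 to 0.78, limma adjusted p = 0.745) at 6 Gy. At 12 Gy it was 0.14 (SE 0.27, interval -0.46 to 0.73, limma adjusted p = 0.812), and it turned to -0.12 without 12 Gy replicate 3 and to -0.04 with array quality weights. The highest and lowest of the 6 irradiated arrays of this set were thus farther apart than those of the 3 mock arrays. A range tends to widen with the number of arrays.

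Pgk1, whose transcript encodes the next enzyme, gave the most even of the 4 readings at its 5′ set. The levels were 3.53, 3.47 and 3.61 in mock, 3.84, 3.71 and 3.40 at 6 Gy, and 3.42, 3.63 and 3.81 at 12 Gy. The groups overlapped, with irradiated arrays at both ends of the range. Mock averaged 3.54 ± 0.066, the 6 Gy group 3.65 ± 0.23 and the 12 Gy group 3.62 ± 0.20 (SD, n = 3 each). The differences from mock were 0.11 (SE 0.18, 95% interval -0.30 to 0.52, limma adjusted p = 0.778) at 6 Gy and 0.08 (SE 0.18, interval -0.33 to 0.49, limma adjusted p = 0.840) at 12 Gy. Their sign depends on the scaling: with the authors' deposited values they were -0.068 at 6 Gy and -0.063 at 12 Gy.

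The 3′ set of Pgk1 had levels of 5.65, 5.07 and 4.99 in mock, where replicate 1, the array alone on its slide, stood above the other two. The levels were 5.63, 5.60 and 5.35 at 6 Gy and 5.27, 5.56 and 5.88 at 12 Gy. All 6 irradiated arrays lay above mock replicates 2 and 3, and 12 Gy replicate 3 also lay above mock replicate 1. Mock averaged 5.24 ± 0.36, the 6 Gy group 5.53 ± 0.15 and the 12 Gy group 5.57 ± 0.31 (SD, n = 3 each). The difference from mock was 0.29 (SE 0.23, 95% interval -0.23 to 0.81, limma adjusted p = 0.544) at 6 Gy. At 12 Gy it was 0.33 (SE 0.23, interval -0.19 to 0.85, limma adjusted p = 0.469). With array quality weights, an alternative that counts uneven arrays less, the 12 Gy difference was 0.45 (limma, adjusted p = 0.0210), and the 6 Gy difference of Gapdh 5′ was 0.49 (limma, adjusted p = 0.0424). With these weights limma called 38.4% of the tested probes at 12 Gy against mock and 17.6% at 6 Gy against mock, compared with 0% without weights, and 1 of 4 sets at each dose. Mock replicates 1 to 3 had weights of 0.29, 3.81 and 0.58, and the 12 Gy replicates 0.74, 5.78 and 0.42. The weighted means of these groups thus rest mostly on replicate 2 of each. The 6 Gy replicates had weights of 2.13, 0.93 and 0.44.

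**Figure D1:**
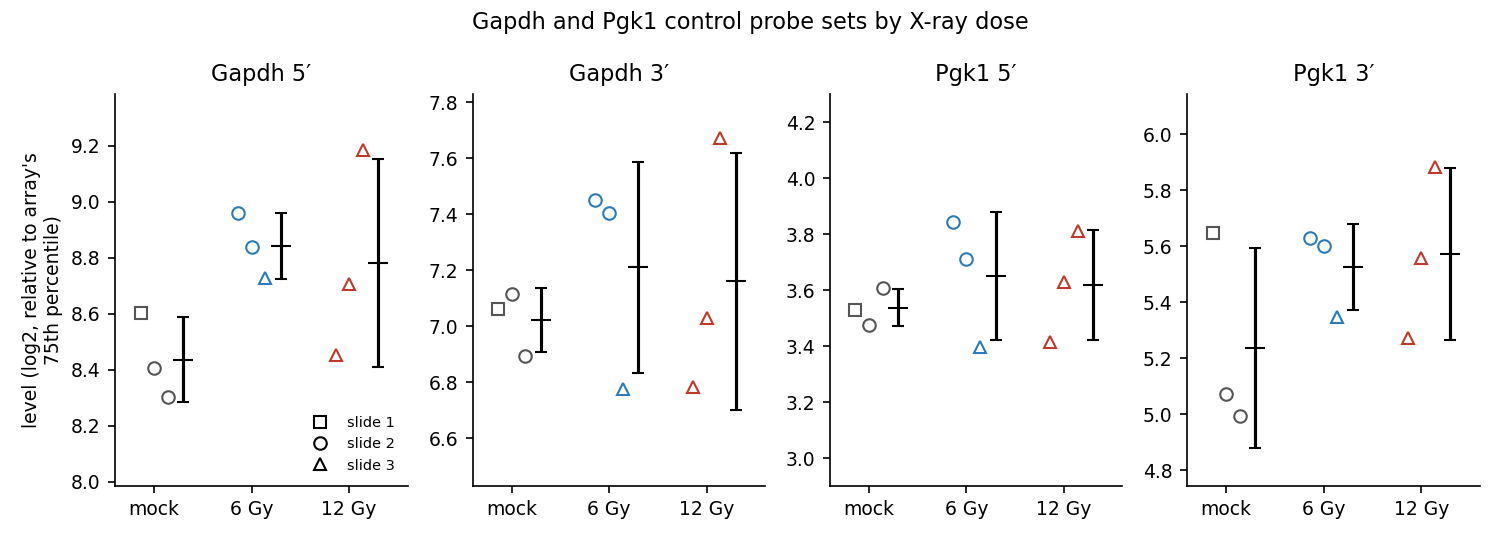
Level of each control probe set on each array (y axis, log2 units above the 75th percentile of its array; each panel spans the same number of log2 units) by X-ray dose, with the shape of a point giving its slide and bars giving the mean and SD of 3 arrays. At the Gapdh 5′ set the 6 Gy arrays sit between 8.73 and 8.96, above the mock arrays at 8.30 to 8.60, and in the other panels the groups overlap.

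Between the doses the sets differed in mean by 0.06 or less, and their arrays overlapped in all 4. Of the tested probes, 44.2% were higher in mean at 12 Gy than at 6 Gy, and 2.92% had all 12 Gy arrays above all 6 Gy arrays. The 12 Gy minus 6 Gy differences were -0.06 for Gapdh 5′ (95% interval -0.53 to 0.41), -0.05 for Gapdh 3′ (-0.64 to 0.55), -0.03 for Pgk1 5′ (-0.44 to 0.38) and 0.05 for Pgk1 3′ (-0.47 to 0.57). None passed (limma, Benjamini-Hochberg adjusted p = 0.9999 for each), and the sign of each turned under some alternatives. The intervals still hold differences of 0.38 or more in either direction.

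Pooling the doses gives 6 irradiated arrays against 3 mock arrays, the comparison in which an exact test can pass 0.05 (84 divisions of the arrays, smallest two-sided p = 0.0238). Gapdh 5′ was higher by 0.37, a fold of 1.30 with a limma interval of 0.977 to 1.72, with 5 of 6 irradiated arrays above all mock arrays (exact permutation p = 0.0476). Over all probes, 19% had an exact p under 0.05 and 13.3% had one with the higher level after irradiation. The same difference had an adjusted p of 0.267 in limma, which called 0% of probes in this comparison, against 21.3% (6805) at an unadjusted p under 0.05, 15.2% with the higher level after irradiation. Of the 4 sets 0 had an unadjusted limma p under 0.05. With array quality weights limma called Gapdh 5′ (0.40, adjusted p = 0.0250) and Pgk1 3′ (0.47, adjusted p = 0.0166) for the pooled doses, 2 of 4 sets, beside 33.3% of the tested probes. Pgk1 3′ was higher by 0.31, a fold of 1.24 (0.908 to 1.70, exact permutation p = 0.190). The differences of Gapdh 3′ and Pgk1 5′ were 0.16 and 0.098 (exact permutation p = 0.5 and 0.429). Exact permutation p-values for the pooled doses, here and below, were not adjusted over the 4 sets, and that of Gapdh 5′ was the smallest here. Of the tested probes, 64.8% were higher in mean after irradiation, with a median difference of 0.13, and all 4 sets were on that side. The difference of Gapdh 5′ exceeded that of 76.4% of the tested probes, Pgk1 3′ that of 70.2%, Gapdh 3′ that of 53.6% and Pgk1 5′ that of 46.1%.

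How the arrays are scaled to each other moved these values. The median difference of all tested probes between irradiated and mock arrays was 0.13 with the 75th percentile, 0.29 with no scaling and 0.33 with the 5 adenoviral E1A spike-in sets that lie in range. It was -0.0049 when arrays were scaled to the median of probes detected on all of them, and 0.034 in the authors' deposited values. Gapdh 5′ was higher by 0.53 with no scaling (exact permutation p = 0.0238) and by 0.24 with the authors' deposited values (exact permutation p = 0.238). Pgk1 3′ was higher by 0.47 with no scaling (exact permutation p = 0.0238) and by 0.51 with spike-in scaling (exact permutation p = 0.0476). The share of all probes with such p-values was not counted under these scalings. It was higher by 0.17 with the median of probes detected on all arrays and by 0.18 with the authors' deposited values (exact permutation p = 0.405 for each). The pooled difference of Gapdh 3′ ran from 0.36 with spike-in scaling (exact permutation p = 0.214) to 0.030 with the authors' deposited values (exact permutation p = 0.905) and 0.0024 with the 75th percentile of detected probes (exact permutation p = 1). Leaving out each array in turn gave 0.30 to 0.46 for Gapdh 5′. The exact permutation p was 0.0357 without 12 Gy replicate 1 and 0.0714 without any 1 of the other 5 irradiated arrays. With a mock array left out the test cannot go below 0.0714.

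Arrays that share a slide gave larger differences between 6 Gy and mock than the pooled groups. On slide 2, with 2 mock and 2 6 Gy arrays, the difference was 0.55 for Gapdh 5′, 0.42 for Gapdh 3′, 0.24 for Pgk1 5′ and 0.58 for Pgk1 3′. In 4 of 4 sets both 6 Gy arrays on that slide lay above both mock arrays, as in 38% of the tested probes. On slide 3 the 12 Gy mean was above the single 6 Gy array by 0.055 for Gapdh 5′, 0.39 for Gapdh 3′, 0.22 for Pgk1 5′ and 0.22 for Pgk1 3′. With slide as a fixed block in limma, the 12 Gy minus mock differences became 0.60, 0.81, 0.46 and 0.81 for Gapdh 5′, Gapdh 3′, Pgk1 5′ and Pgk1 3′, and 0 of 4 passed. Those values join mock to 12 Gy through the 6 Gy arrays alone. The part of the slides in the pooled differences was not tested.

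The difference between the 3′ and the 5′ set of a gene within an array cancels the array's scaling, and uneven RNA quality would enter it. For Gapdh the 3′ minus 5′ difference was -1.54, -1.29 and -1.41 in mock, -1.51, -1.44 and -1.95 at 6 Gy, and -1.67, -1.68 and -1.51 at 12 Gy. The lowest value was that of 6 Gy replicate 3, and the groups overlapped. By slide, the values were -1.95 to -1.512 on slide 3 and -1.508 to -1.29 on slide 2, with -1.54 on slide 1, so every slide 3 array lay below every slide 2 array. For Pgk1 it was 2.12, 1.60 and 1.39 in mock, 1.79, 1.89 and 1.95 at 6 Gy, and 1.86, 1.93 and 2.07 at 12 Gy, with mock replicate 1 above all other arrays and mock replicates 2 and 3 below all of them. The offset between sets has no meaning of its own, because the sets are different probes. Against mock, the Gapdh difference was lower by 0.22 at 6 Gy (change -0.22, exact permutation p = 0.4) and by 0.21 at 12 Gy (change -0.21, exact permutation p = 0.2). That of Pgk1 changed by 0.17 (exact permutation p = 0.5) and 0.25 (exact permutation p = 0.4). After Benjamini-Hochberg adjustment over these 4 tests each exact permutation p was 0.5, and 3 arrays against 3 cannot go below 0.1. The shifts of the 2 genes had opposite signs. Within slide 2 the 6 Gy arrays differed from mock by -0.12 for Gapdh and 0.34 for Pgk1, and within slide 3 the 12 Gy arrays differed from the single 6 Gy array by 0.33 and 0.0010. Without 6 Gy replicate 3 the Gapdh change at 6 Gy was -0.057. The Pgk1 change at 6 Gy was 0.018 without mock replicate 3 and 0.38 without mock replicate 1, and at 12 Gy it was 0.095 and 0.46 without the same arrays.

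The mean of the Pgk1 sets minus the mean of the Gapdh sets followed the RNA signals of the 2 genes relative to each other. It was -3.24, -3.49 and -3.30 in mock, -3.47, -3.46 and -3.38 at 6 Gy, and -3.27, -3.27 and -3.58 at 12 Gy. The group means were -3.34 ± 0.13, -3.44 ± 0.051 and -3.37 ± 0.18 (SD, n = 3 each), and the arrays of all 3 groups overlapped. The change from mock was -0.095 at 6 Gy (exact permutation p = 0.4) and -0.033 at 12 Gy (exact permutation p = 0.7). With both doses pooled it was -0.064 (exact permutation p = 0.5). The value at 12 Gy turned to 0.016 without mock replicate 1 and to 0.069 without 12 Gy replicate 3.

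**Figure D2:**
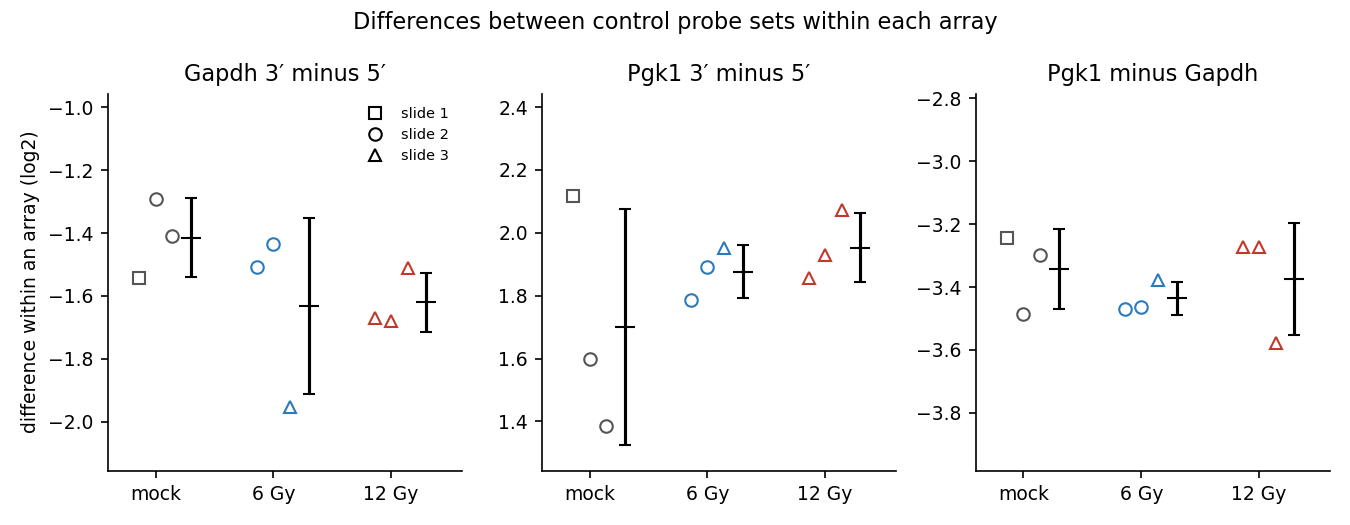
Differences between probe sets within each array (y axis, log2; each panel spans the same number of log2 units) by X-ray dose: Gapdh 3′ minus 5′, Pgk1 3′ minus 5′, and the mean of the Pgk1 sets minus the mean of the Gapdh sets, with slides as shapes and bars for the mean and SD of 3 arrays. The Pgk1 3′ minus 5′ values of mock run from 1.39 to 2.12 and enclose those of both doses.

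Across the 9 arrays the 4 readings varied together. Pearson's r was 0.897 between Gapdh 5′ and Pgk1 3′ (exact permutation p = 0.00129, adjusted over the 6 pairs 0.00774; Spearman's rho 0.817, exact permutation p = 0.0108, adjusted 0.0323). Between Gapdh 3′ and Pgk1 5′ it was 0.881 (exact permutation p = 0.00290, adjusted 0.00870; rho 0.833, p = 0.00827, adjusted 0.0323). These pairs cross the genes, and both values were above those within a gene. Within Gapdh the 2 sets gave r = 0.798 (exact permutation p = 0.0128, adjusted 0.0257; rho 0.6, p = 0.0968, adjusted 0.108). Within Pgk1 they gave r = 0.625 (exact permutation p = 0.0719, adjusted 0.0719; rho 0.583, p = 0.108, adjusted 0.108). The like ends gave r = 0.713 for both 5′ sets (exact permutation p = 0.0341, adjusted 0.0409; rho 0.617, p = 0.0857, adjusted 0.108) and r = 0.708 for both 3′ sets (exact permutation p = 0.0290, adjusted 0.0409; rho 0.65, p = 0.0666, adjusted 0.108).

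The 2 highest correlations were less high without the 2 arrays farthest from the median. For Gapdh 5′ and Pgk1 3′, r was 0.764 without mock replicate 3 and 12 Gy replicate 3. For Gapdh 3′ and Pgk1 5′ it was 0.752 without 6 Gy replicate 1 and 12 Gy replicate 3. The lowest value after such omission was 0.435, for the 3′ sets of the 2 genes. Taken as deviations from the group means, the 6 correlations were 0.587 to 0.879, so arrays of 1 dose also varied together. The points share an array, its labelled RNA and its scaling. With spike-in scaling r was 0.747 to 0.939 over the pairs, and slides hold at most 4 arrays, too few for a value within a slide.

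**Figure D3:**
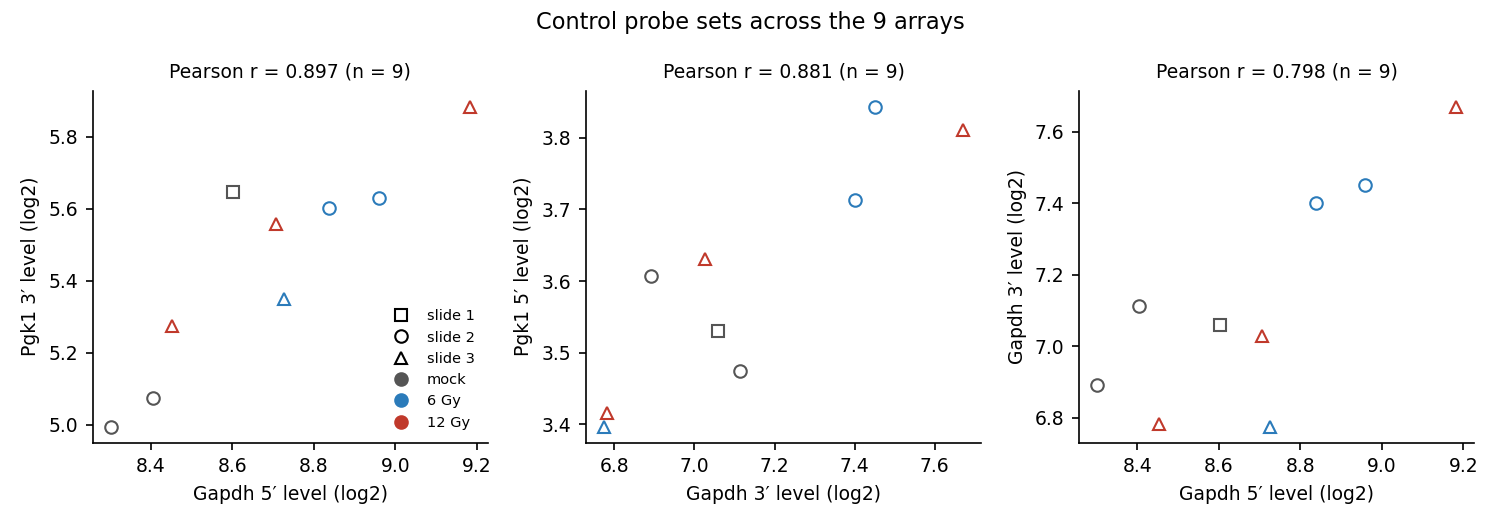
Levels of 3 pairs of control probe sets over the 9 arrays (both axes in log2 units above the 75th percentile of each array), coloured by dose and shaped by slide. Pearson's r is 0.897, 0.881 and 0.798 from left to right, and 12 Gy replicate 3 is highest on the Gapdh axis in each panel.

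The spread over arrays was near the median of the tested probes for 3 of the sets and lower for Pgk1 5′. From the lowest to the highest array the levels spanned a fold of 1.84 for Gapdh 5′, 1.86 for Gapdh 3′, 1.85 for Pgk1 3′ and 1.36 for Pgk1 5′. The SD over the 9 arrays was 0.28, 0.31, 0.29 and 0.16 in that order, against a median of 0.32 over the tested probes. Of the 5698 tested probes within 1 log2 unit of the Pgk1 5′ level, 7.32% had a smaller SD. For the other sets that share was 52.3% of 367 probes (Gapdh 5′), 60.5% of 951 (Gapdh 3′) and 50.6% of 2332 (Pgk1 3′). All 4 SDs were larger when arrays were not scaled, at 0.25 to 0.38. The median SD over the spots of a set within an array was lower, at 0.043 to 0.073. For Pgk1 5′ it was 0.066, against 0.16 over the 9 arrays and 0.066 over the 3 mock arrays.

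The same arrays carry 8 control sets labelled for human or rat GAPDH and PGK1, with 80 spots. How closely each matches the mouse transcripts is not given, so they were read as further probes, chosen after the mouse sets had been examined. The rat PGK1 3′ set was left out, since 1 of its 90 spot values was well above background. In 6 of the remaining 7 sets every irradiated array lay above every mock array, compared with 0 of 4 mouse sets and 8.52% of the tested probes (2728). These 6 were higher after irradiation by 0.39 to 0.59 (exact permutation p = 0.0238 for each, the smallest possible). All are readings labelled for GAPDH or PGK1 on the same arrays, so their counts and p-values are not independent of each other. The exception, rat PGK1 5′, was higher by 0.12 with overlapping groups (exact permutation p = 0.357).

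The human-labelled PGK1 5′ set had the smallest SD within groups of all these sets, 0.10. Its levels were 0.88, 1.03 and 1.03 in mock, 1.50, 1.35 and 1.35 at 6 Gy, and 1.31, 1.46 and 1.56 at 12 Gy, and the means were 0.98 ± 0.085, 1.40 ± 0.084 and 1.44 ± 0.13 (SD, n = 3 each). The irradiated arrays were higher by 0.44, while the mouse Pgk1 5′ set on the same arrays gave 0.098. The rat-labelled GAPDH 3′ set had the largest difference, 0.59, and its levels were ordered by slide. They were 3.12 on slide 1, 3.41 to 3.83 on slide 2 and 3.98 to 4.18 on slide 3, where the single 6 Gy array (4.02) lay among the 12 Gy arrays (3.98, 4.05 and 4.18). On slide 2 the 6 Gy arrays were higher than mock by 0.28 for this set and by 0.40 for human PGK1 5′. The part of the slides in these differences was not tested.

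Scaling changed how many of the sets stood apart. With no scaling, all irradiated arrays were above all mock arrays for 2 of 4 mouse sets and 6 of 7 human or rat sets, and for 15.3% of tested probes. Spike-in scaling gave 1 of 4, 5 of 7 and 15.7%. Scaling to the median of probes detected on all arrays gave 0 of 4, 3 of 7 and 3.62%, and the authors' deposited values gave 0 of 4, 3 of 7 and 4.70%. The 3 sets apart in the authors' deposited values were human PGK1 5′, human PGK1 3′ and rat GAPDH 3′.

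**Figure D4:**
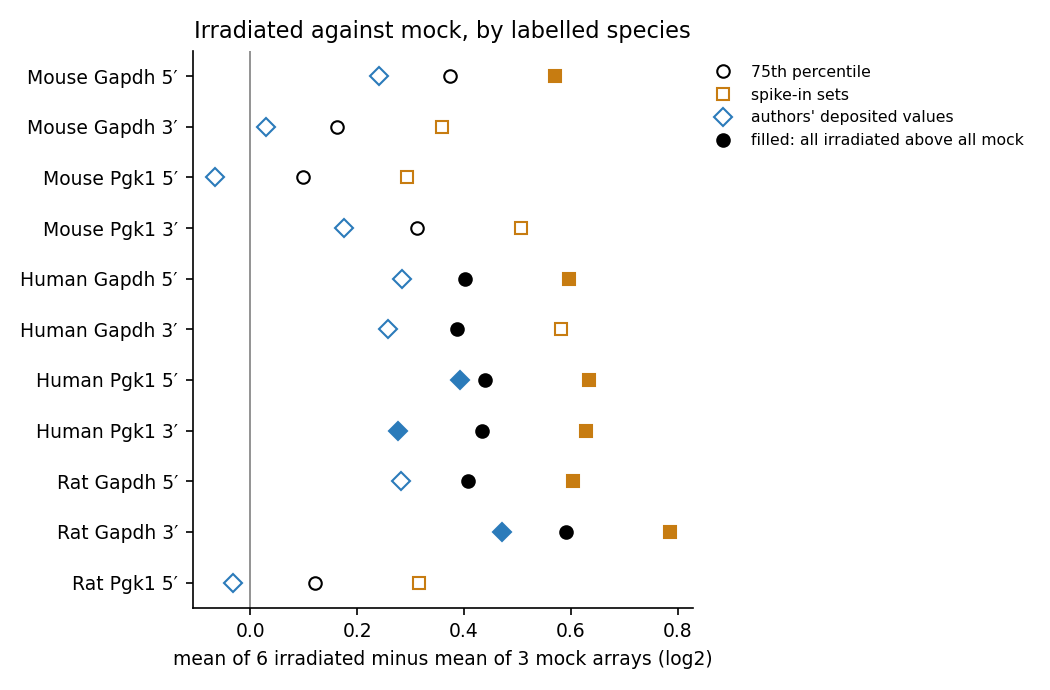
Difference between the means of 6 irradiated and 3 mock arrays (x axis, log2) for the mouse, human and rat labelled control sets under 3 scalings, with filled symbols where all irradiated arrays lie above all mock arrays. With the 75th percentile, 0 of 4 mouse sets and 6 of 7 human or rat sets are filled.

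Sets labelled for different species tracked the mouse sets of the same end to different degrees. Rat PGK1 5′ minus mouse Pgk1 5′ stayed between -0.15 and -0.046 on all 9 arrays, an SD of 0.037. Rat GAPDH 3′ minus mouse Gapdh 3′ had an SD of 0.43. It was -3.94 on slide 1, -3.70 to -3.31 on slide 2 and -3.49 to -2.76 on slide 3, with slides 2 and 3 overlapping. Sets that carry the label of 1 gene thus differed in how they moved over the arrays. Which transcripts each set detects is not given.

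The tested probes were ranked by their correlation with the mean of each gene's sets. For Gapdh the 2 tested probes with the highest Pearson correlation over the 9 arrays were A_55_P1984070 (r = 0.995) and A_55_P2185359 (r = 0.987). A_55_P1984070 had levels of 7.80, 7.75 and 7.63 in mock, 8.19, 8.06 and 7.78 at 6 Gy, and 7.62, 7.81 and 8.41 at 12 Gy, the same high and low arrays as Gapdh. For Pgk1 they were A_55_P2159189 (r = 0.983) and A_55_P1958867 (r = 0.977). Of the 32004 tested probes, 247 had r above 0.9 with Gapdh and 226 with Pgk1, while the median r was 0.125 and 0.102. On deviations from the group means, A_55_P1984070 (r = 0.994) and A_55_P1958867 (r = 0.992) remained among the highest 2 for their gene. The files do not pair these probes with genes, and they were picked as the highest of many.

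Other enzymes, transporters and regulators of glycolysis were sought by exact match of the 60-base probes to the RefSeq promoter windows, the only mouse gene sequence used here. Of a list of 45 genes, 40 had a window and 1 was matched. This probe lies in the window of Pdk1, which encodes a kinase that holds back pyruvate dehydrogenase, and it was not above background, so it was not tested. Values for the other genes of the pathway were not analysed here.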

How the data were processed

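The 9 samples of gastric tissue from C57 mice, 3 each at 0, 6 and 12 Gy, were profiled on 1-colour Agilent arrays. Groups and replicate numbers come from the sample titles. Per the submitters' processing notes, scans were quantified in Agilent Feature Extraction 10.7.1.1. Per the file headers, the deposited scanner files hold processed spot intensity on a linear scale, not normalized between arrays. The authors' deposited table holds log2 values whose columns share a median of 3.99 and differ by at most 0.106 at any rank. Its making is not given in the sources used here. It was used as an alternative.

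Outlier spots were left out (1 to 6 of the 90 values of a mouse set), spots of a probe were averaged on the log2 scale, and the array's 75th percentile over non-control spots was subtracted. Probes well above background on all 3 arrays of a group were tested with limma 3.58.1 in R 4.3.3 (group means, lmFit and eBayes, all 9 arrays, Benjamini-Hochberg threshold 0.05). Single values had two-sided exact permutation tests written for this work, and the test of a difference was compared with that of scipy 1.17.1. Both were tested on simulated data. The number of arrays limits the precision.

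Named were the 4 mouse sets, probes or pathway genes matched by sequence, and, for each gene, the 2 tested probes most correlated with the mean of its sets. The members and lists were chosen with earlier results of these data known. Additions were chosen after seeing the data: limma for the pooled doses, Pgk1 minus Gapdh, and the human and rat sets. Same-numbered arrays did not deviate together (correlations -0.454 to 0.139, above 0.1 in 3 of 9), and were therefore not treated as paired. Alternatives covered scaling, background correction, filter, spread, slide, replicate block, array weights and each array left out.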

Additional observations from a re-analysis of the deposited data

How the results depend on the processing

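The 12 Gy minus 6 Gy differences of the mouse sets, all at most 0.06 in size, had the least settled sign. It turned for Gapdh 5′ with no scaling (0.064), with normexp background correction (0.016) and with slide as a fixed block or within slide 3 (0.055). For Gapdh 3′ it turned with no scaling (0.075), the 75th percentile of detected probes (0.0015), normexp (0.013), slide as a fixed block or within slide 3 (0.39) and slide as a random block (0.078). For Pgk1 5′ it turned with no scaling (0.092), the median (0.0092) or 75th percentile (0.019) of detected probes, quantile normalization (0.011), normexp (0.029), mean signal without background correction (0.00075), the authors' deposited values (0.0044), slide as a fixed block or within slide 3 (0.22) and as a random block (0.046). For Pgk1 3′ it was -0.063 with spike-in scaling and -0.039 with array weights. Pgk1 5′ against mock was negative with the median and the 75th percentile of detected probes, quantile normalization and the authors' deposited values. The values in that order were -0.035, -0.053, -0.058 and -0.063 at 12 Gy, -0.044, -0.072, -0.069 and -0.068 at 6 Gy, and -0.040, -0.063, -0.063 and -0.065 for both doses. Gapdh 3′ at 12 Gy was -0.042 with array weights.

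With array weights, limma with Benjamini-Hochberg adjustment took in Gapdh 5′ at 6 Gy (0.49) and Pgk1 3′ at 12 Gy (0.45) and for both doses (0.47), beside 17.6%, 38.4% and 33.3% of the tested probes in those comparisons. Pgk1 3′ for both doses also passed an exact permutation test, unadjusted over the sets, with no scaling (0.47), spike-in scaling (0.51) and uncorrected mean signal (0.40). The median difference of the tested probes was 0.29 with no scaling and 0.33 with spike-in scaling. All irradiated arrays lay above all mock arrays for 15.3% and 15.7% of them. The share of probes passing the exact test was counted only with the 75th percentile, at 19%, 13.3% with the higher level after irradiation. Gapdh 5′ for both doses no longer passed an exact permutation test, likewise unadjusted, with the median of detected probes (0.24) or their 75th percentile (0.21). Nor did it with quantile normalization (0.24), uncorrected mean signal (0.49) or the authors' deposited values (0.24). In limma it did not pass with its own 0.37, the variance trend (0.37), all non-control probes (0.37), slide as a fixed (0.57) or random (0.41) block. It passed in limma with array weights (0.40, Benjamini-Hochberg adjusted p = 0.0250). With the replicate number as a block the difference was 0.37 (limma, Benjamini-Hochberg adjusted p = 0.347). It was not called without the block either (limma, Benjamini-Hochberg adjusted p = 0.267), and the block changed no limma call. The cause of the changes with scaling, background correction and weights was not tested.

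Leaving out each array in turn, the lowest and highest 12 Gy minus 6 Gy differences were -0.26 and 0.10 for Gapdh 5′, -0.30 and 0.14 for Gapdh 3′, -0.16 and 0.070 for Pgk1 5′, and -0.11 and 0.19 for Pgk1 3′. Those for 12 Gy minus mock were -0.12 and 0.33 for Gapdh 3′, -0.014 and 0.18 for Pgk1 5′, and -0.11 and 0.069 for Pgk1 minus Gapdh, with the sign turned without 12 Gy replicate 3 in each and, for Pgk1 minus Gapdh, also without mock replicate 1. Gapdh 5′ for both doses ran from 0.30 to 0.46, and at 12 Gy from 0.14 (without 12 Gy replicate 3) to 0.51. Pgk1 3′ ran from 0.18 (without 12 Gy replicate 3) to 0.54 (without mock replicate 1) at 12 Gy, and from 0.17 (without mock replicate 3) to 0.49 (without mock replicate 1) at 6 Gy. At 6 Gy, Gapdh 3′ ran from 0.066 (without 6 Gy replicate 1) to 0.41 (without 6 Gy replicate 3) and Pgk1 5′ from 0.018 to 0.24 (without the same arrays). The 3′ minus 5′ differences kept their sign under every alternative run on them, but not their size. Without single arrays Gapdh ran from -0.31 to -0.057 at 6 Gy. Pgk1 ran from 0.018 to 0.38 at 6 Gy and 0.095 to 0.46 at 12 Gy. A slide block was not run on these differences. With slide as a fixed block, the 12 Gy minus mock difference of Gapdh 3′ (0.81) exceeded that of Gapdh 5′ (0.60). Without the block the order was the other way (0.14 and 0.34). Pgk1 3′ (0.81) stayed above Pgk1 5′ (0.46) with the block. At 6 Gy the order of the 3′ and 5′ sets was kept for Gapdh (0.42 and 0.55) and Pgk1 (0.58 and 0.24). All spots of the mouse sets were well above background. The arrays are few, slide overlaps with dose, and the scaling moved values and signs. What part each had in these values was not tested.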
